A study of Saccharomyces cerevisiae with 17 samples.

Results

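The phosphate response that depends on SPL2 was measured in Saccharomyces cerevisiae as an interaction, the response of an spl2 deletion strain to phosphate withdrawal minus that of its parent BY4741. The members were all features that reached 1 RPM, a read number scaled to a common library total, in 2 or more of the 11 libraries of both strains. They numbered 6071 of the 7125 features in the table, and the 11 libraries were taken from 17 in the series. Of the 1054 features below the minimum, 472 had 0 reads in all 11 libraries. The groups were the spl2 deletion at 0 mM phosphate (libraries 12, 19 and 20), the spl2 deletion at 7.2 mM (libraries 7 and 18), BY4741 at 0 mM (libraries 14, 16 and 17) and BY4741 at 7.2 mM (libraries 10, 11 and 13). BY4741 is a common haploid laboratory strain whose mating type is a and whose HIS3, LEU2, MET17 and URA3 genes are not functional, and the deletion was made in it. Both were grown at 30 °C in synthetic medium with phosphate and potassium chloride, washed, and kept for 60 min in medium with or without phosphate. An overnight culture supplied the cultures for both phosphate levels, so libraries of different groups can share a parent culture. The sources used here do not say how SPL2 was deleted or how many clones were used. The description of the series and the labels of the samples differ on which level of the spl2 deletion had 3 cultures, and the labels were followed.

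Yeast senses phosphate through the PHO pathway. When phosphate is ample, the cyclin and cyclin-dependent kinase Pho80-Pho85 phosphorylate the transcription factor Pho4 and keep it out of the nucleus. When phosphate is scarce, the inhibitor Pho81 holds the kinase back, and Pho4 with its partner Pho2 activates genes for high-affinity uptake, secreted phosphatases and polyphosphate synthesis. SPL2 is itself a Pho4 target and encodes a small protein that restrains low-affinity phosphate uptake through Pho87 and Pho90. It thereby takes part in the switch between the low-affinity and the high-affinity transport systems.

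The libraries held 22004771 to 40493274 reads in named features. In the spl2 deletion SPL2 had 0, 8 and 1 reads at 0 mM and 0 reads in both libraries at 7.2 mM. In BY4741 it had 6490, 6843 and 10362 reads at 0 mM and 563, 558 and 488 reads at 7.2 mM, so the libraries followed their labels. Summed over 7 markers of a cells the level was 1079 to 1168 RPM in the spl2 deletion at 0 mM, 1234 to 1282 RPM in the spl2 deletion at 7.2 mM, 1188 to 1271 RPM in BY4741 at 0 mM and 1233 to 1318 RPM in BY4741 at 7.2 mM. Summed over 4 markers of alpha cells it was 54.9 to 58.0, 46.4 to 47.8, 51.1 to 55.6 and 49.1 to 54.3 RPM in the same order of groups. Among these the pheromone gene MF(ALPHA)1 stood between 0.172 and 0.565 RPM and STE3 between 4.90 and 6.91 RPM. MF(ALPHA)2 stood between 6.07 and 8.90 RPM and SAG1 between 34.4 and 44.2 RPM. Summed over 7 markers of sporulating or diploid cells the level was 75.6 to 86.6, 64.1 to 71.5, 88.0 to 90.9 and 68.7 to 70.0 RPM in the same order of groups. Ribosomal protein genes took 24.5% to 25.2% of the reads in the spl2 deletion at 0 mM, 33.0% to 34.1% in the spl2 deletion at 7.2 mM, 24.6% to 26.6% in BY4741 at 0 mM and 30.4% to 33.6% in BY4741 at 7.2 mM.

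A positive interaction means that the change of log2(RPM + 1) on going without phosphate was higher in the spl2 deletion than in BY4741. The interaction passed a limma test at an adjusted p of 0.05 for 882 of the 6071 features, or 14.5%. It was higher in the spl2 deletion for 414 features (6.82%) and lower for 468 (7.71%), the deleted SPL2 among them. Most interactions were small: the median was 0.36 among the features with a higher response and -0.42 among those with a lower one, against 0.0070 over all tested. An interaction of 1 or more on the log2 scale, a doubling of the response ratio, was reached by 4 of the higher and 8 of the lower features. The count depended on single libraries. It was 197 higher and 309 lower without spl2 deletion library 7 at 7.2 mM, 244 and 293 without spl2 deletion library 19 at 0 mM, 231 and 276 without BY4741 library 16 at 0 mM, and 297 and 298 without BY4741 library 14 at 0 mM. Of the features that passed, 146 of the 414 and 171 of the 468 also passed in every alternative tried that could give them a value.

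The interaction is the difference between strains at 0 mM minus that at 7.2 mM, so a call by itself favours differences of opposite sign. The counts that follow describe the called features, and no difference at a single level was tested. The difference between strains had opposite signs at 0 mM and at 7.2 mM for 411 of the 414 higher features, for 457 of the 468 lower ones and for 67.7% of all tested features. These counts take the sign of any difference, also of one near 0. Among the higher features the median difference, spl2 deletion minus BY4741, was 0.21 at 0 mM and -0.16 at 7.2 mM. Among the lower features it was -0.24 at 0 mM and 0.17 at 7.2 mM. A feature was placed mostly at one level where the difference there was at least 2 times that at the other. By that rule 91 of the higher features lay mostly at 0 mM, 23 mostly at 7.2 mM and 300 at both. Of the lower features 134 lay mostly at 0 mM, 8 mostly at 7.2 mM and 326 at both, while over all tested features the shares were 33.3%, 20.8% and 45.9%. Of the 23 higher features that lay mostly at 7.2 mM, 6 were members of the PHO regulon, as the plot of the strain differences shows.

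**Figure D1:**
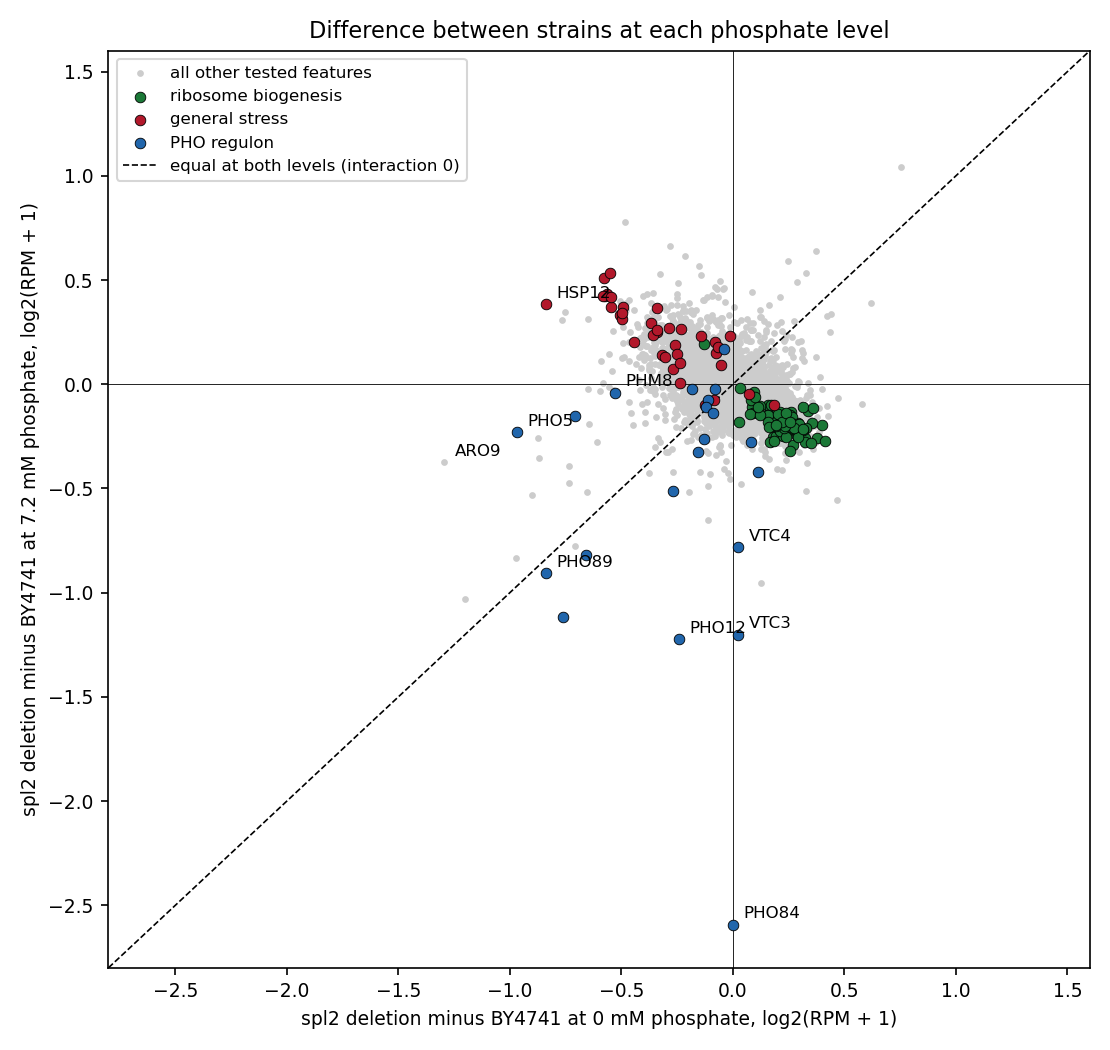
Each point is a tested feature; the horizontal axis is the spl2 deletion minus BY4741 at 0 mM phosphate and the vertical axis the same difference at 7.2 mM, both of group means of log2(RPM + 1). The dashed line marks equal differences; PHO84, VTC3 and VTC4 lie far below it near 0 on the horizontal axis, general stress genes lie at the upper left and ribosome biogenesis genes at the lower right, and SPL2, at -8.11 and -4.43, is outside the axes.

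The interaction moved with the length of the gene. Across the 5737 tested features with a length in the RefSeq annotation, Spearman's rho between length and interaction was 0.57, as a description across genes that share the same 11 libraries. The features were split into 5 classes of length. In the shortest class (78 to 660 bases) the median interaction was -0.20, with 5 features higher and 264 lower. In the longest class it was 0.16, with 194 higher and 8 lower. The median length was 2047.5 bases among the higher features, 591 bases among the lower ones and 1236 bases over all tested. The median deviation of the shortest class minus that of the longest class was -0.18, -0.27 and -0.23 on the log2 scale in libraries 12, 19 and 20 of the spl2 deletion at 0 mM, and 0.22 and 0.16 in libraries 7 and 18 of the spl2 deletion at 7.2 mM. It was 0.04, 0.04 and -0.04 in libraries 14, 16 and 17 of BY4741 at 0 mM, and -0.07, 0.17 and 0.12 in libraries 10, 11 and 13 of BY4741 at 7.2 mM. When a smooth trend on length was removed within each library, rho was 0.026. The test then called 374 features higher and 330 lower, keeping 261 of the 412 higher and 245 of the 451 lower features that have a length. Values with the length trend removed are therefore given beside the groups below. The part of gene length in the other interactions was not tested beyond that.

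**Figure D2:**
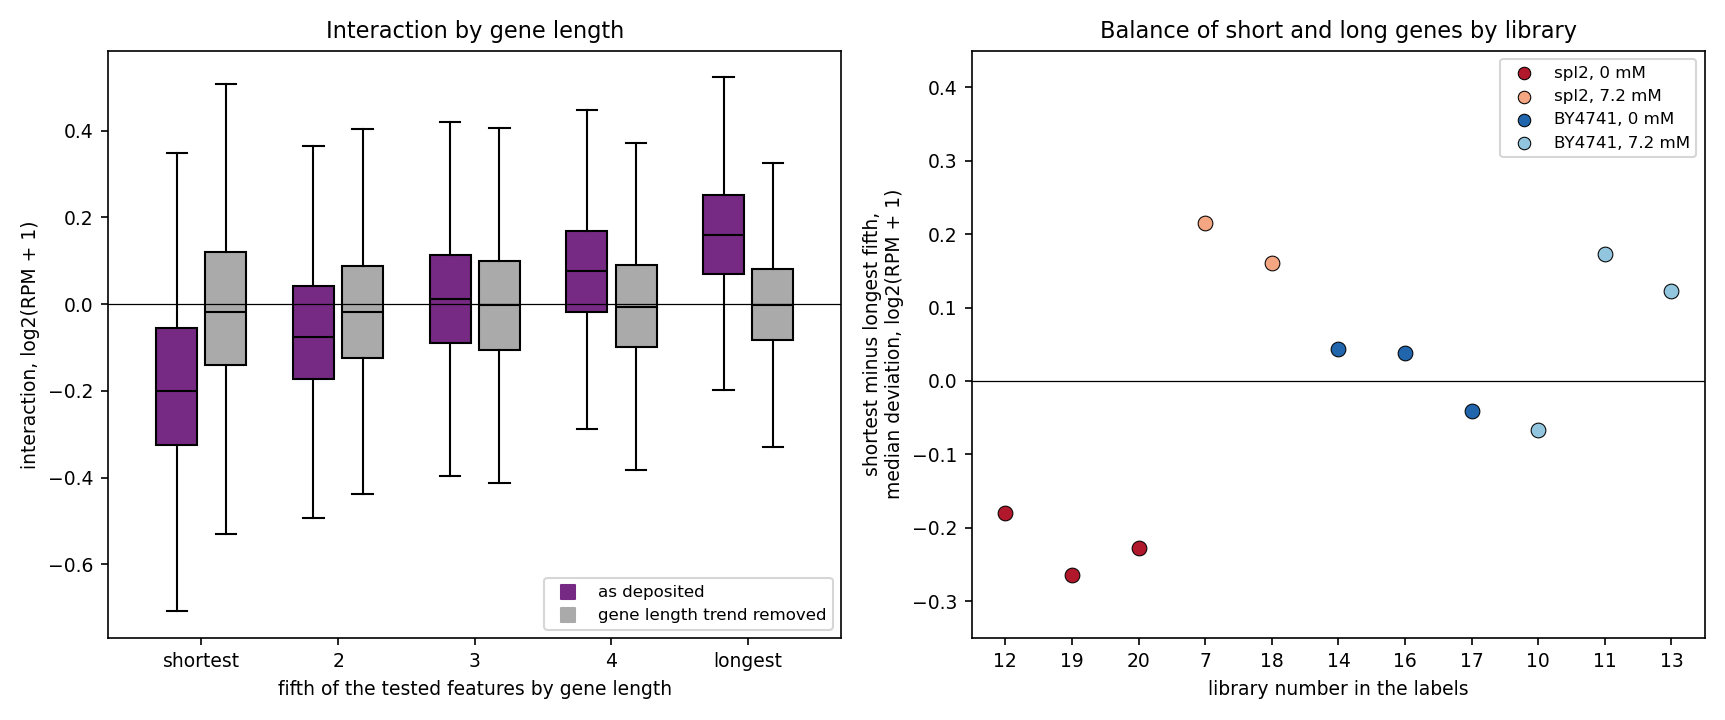
Left: interaction on the log2(RPM + 1) scale by class of gene length, as deposited (purple) and with the length trend removed (grey); boxes span the quartiles, the line is the median and whiskers reach 1.5 times the quartile range. Right: median deviation of the shortest minus the longest class in each library; the 3 spl2 deletion libraries at 0 mM lie between -0.27 and -0.18, and both at 7.2 mM lie at 0.16 and 0.22.

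The PHO regulon held the largest higher response. PHO84 encodes the high-affinity proton-coupled phosphate transporter. It stood at 2346, 2151 and 2194 RPM in the spl2 deletion at 0 mM and at 29.4 and 33.1 RPM in the spl2 deletion at 7.2 mM. In BY4741 it stood at 2200, 2183 and 2297 RPM at 0 mM and at 197.0, 193.3 and 189.1 RPM at 7.2 mM. The strains overlapped at 0 mM and were far apart at 7.2 mM, where both spl2 deletion libraries lay below every BY4741 library. The interaction was 2.59 ± 0.0802 (SE; limma adjusted p = 9.94e-12), and the ratio of mean RPM without to with phosphate was 6.20-fold larger in the spl2 deletion. It passed in all 21 alternatives, at 2.51 with the length trend removed.

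Genes of the vacuolar transporter chaperone (VTC) complex, which makes polyphosphate, followed PHO84. VTC3 stood at 1009, 1017 and 1060 RPM in the spl2 deletion at 0 mM, at 50.4 and 62.5 RPM in the spl2 deletion at 7.2 mM, at 1009, 975.6 and 1050 RPM in BY4741 at 0 mM and at 135.7, 125.2 and 130.1 RPM in BY4741 at 7.2 mM. VTC4, the catalytic subunit, stood at 1098, 1074 and 1093 RPM in the spl2 deletion at 0 mM, at 109.4 and 113.6 RPM in the spl2 deletion at 7.2 mM, at 1084, 1069 and 1058 RPM in BY4741 at 0 mM and at 202.6, 188.0 and 187.0 RPM in BY4741 at 7.2 mM. For both genes the strains overlapped at 0 mM and the spl2 deletion was the lower at 7.2 mM. The interaction was 1.23 ± 0.0990 for VTC3 and 0.81 ± 0.0694 for VTC4 (SE; limma adjusted p = 4.48e-06 and 7.21e-06). VTC2, a regulatory subunit, had a smaller interaction of 0.36 ± 0.0689 (limma adjusted p = 0.00358). VTC1, the small subunit, had 0.25 ± 0.124 and did not pass (limma adjusted p = 0.187), although it passed with the length trend removed (0.46, limma adjusted p = 0.0218). PHO81, the kinase inhibitor, stood at 144.4, 159.1 and 165.3 RPM in the spl2 deletion at 0 mM, at 33.4 and 34.3 RPM in the spl2 deletion at 7.2 mM, at 148.5, 142.0 and 142.4 RPM in BY4741 at 0 mM and at 47.0, 44.4 and 45.7 RPM in BY4741 at 7.2 mM. Its interaction was 0.53 ± 0.0824 (SE; limma adjusted p = 0.0012).

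The acid phosphatase genes did not move together. PHO5, the main secreted acid phosphatase, stood at 334.4, 241.9 and 226.5 RPM in the spl2 deletion at 0 mM, at 29.1 and 28.4 RPM in the spl2 deletion at 7.2 mM, at 504.2, 503.1 and 542.0 RPM in BY4741 at 0 mM and at 35.2, 34.5 and 32.1 RPM in BY4741 at 7.2 mM. Here the strains were far apart at 0 mM, and closer at 7.2 mM, and every spl2 deletion library lay below every BY4741 library at both levels. The interaction was -0.74 ± 0.152 (SE; limma adjusted p = 0.00553), and it passed in all 21 alternatives. PHO12, a nearly identical copy of PHO11, stood at 794.8, 571.8 and 565.1 RPM in the spl2 deletion at 0 mM, at 27.3 and 27.1 RPM in the spl2 deletion at 7.2 mM, at 690.0, 768.8 and 803.8 RPM in BY4741 at 0 mM and at 69.5, 62.2 and 63.1 RPM in BY4741 at 7.2 mM. Its interaction was 0.98 ± 0.152 (SE; limma adjusted p = 0.0012), whereas that of PHO11 was 0.16 ± 0.149 and did not pass (limma adjusted p = 0.498). Reads of these 2 copies can be assigned to either, so the split between PHO11 and PHO12 is uncertain. PHO8, the vacuolar alkaline phosphatase, had an interaction of 0.17 and did not pass (limma adjusted p = 0.14).

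**Figure D3:**
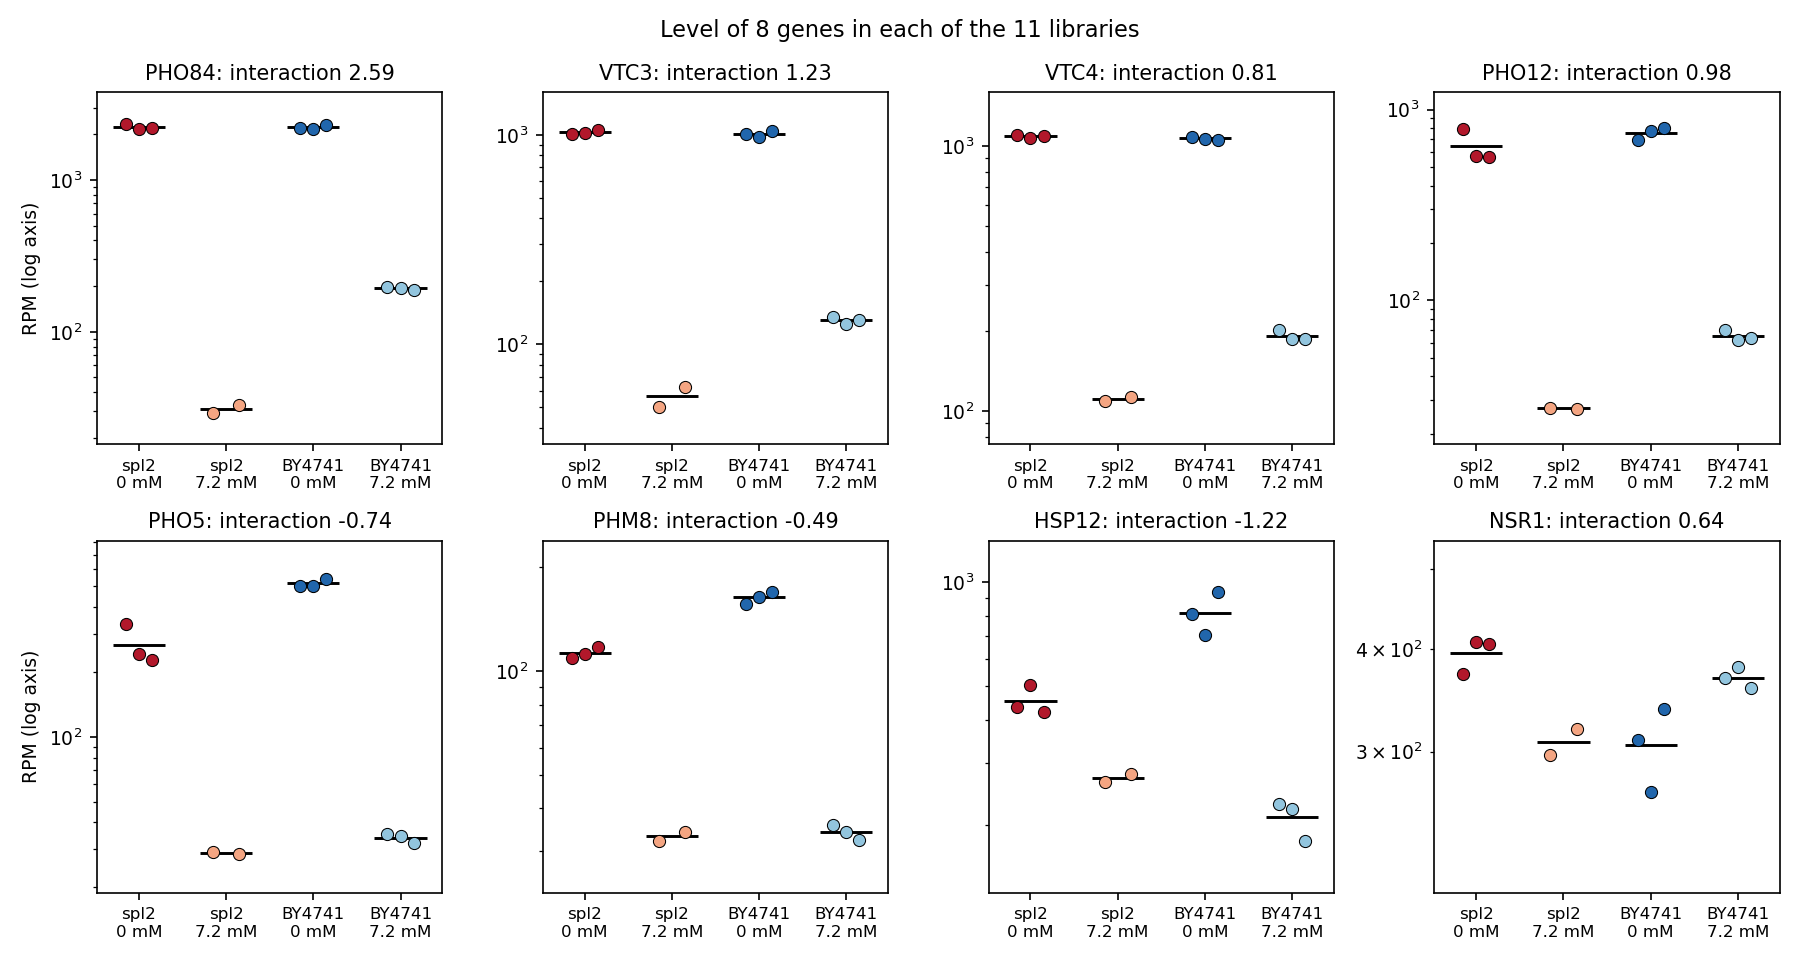
RPM of 8 genes on log axes in each of the 11 libraries; points are libraries, bars are group means, and the title gives the interaction on the log2(RPM + 1) scale. PHO84, VTC3, VTC4 and PHO12 differ between strains mainly at 7.2 mM, PHO5 and PHM8 mainly at 0 mM, and HSP12 and NSR1 in opposite directions at the 2 levels.

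The remaining members of the regulon varied. PHM8, a phosphatase that frees phosphate from nucleotides and lysophosphatidic acid, stood at 109.4, 112.4 and 117.3 RPM in the spl2 deletion at 0 mM, at 32.2 and 34.2 RPM in the spl2 deletion at 7.2 mM, at 157.0, 164.4 and 169.3 RPM in BY4741 at 0 mM and at 35.8, 34.3 and 32.4 RPM in BY4741 at 7.2 mM. The strains were apart at 0 mM, as for PHO5, and overlapped at 7.2 mM, and the interaction was -0.49 ± 0.0817 (SE; limma adjusted p = 0.0019). GIT1, a glycerophosphoinositol transporter, had an interaction of -0.56 ± 0.141 (SE; limma adjusted p = 0.0166), lost without spl2 deletion library 18. PHO89, the sodium-coupled high-affinity transporter, stood at 64.2, 40.0 and 48.7 RPM in the spl2 deletion at 0 mM, at 2.24 and 2.27 RPM in the spl2 deletion at 7.2 mM, at 88.7, 89.0 and 93.2 RPM in BY4741 at 0 mM and at 5.17, 5.22 and 4.95 RPM in BY4741 at 7.2 mM. It was the lower in the spl2 deletion at both levels, and its interaction of 0.07 ± 0.172 did not pass (limma adjusted p = 0.824) and changed sign between alternatives. PHM6, a gene of unknown function, had an interaction of 0.35 ± 0.162 and did not pass (limma adjusted p = 0.1505). The other members that did not pass, PHO86, PHM7, PPN1, YNL217W, GDE1, CTF19 and GPP2, lay between -0.21 and 0.14.

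Of the 22 tested members of the regulon, 6 had a higher response (PHO84, VTC3, PHO12, VTC4, PHO81 and VTC2) and 4 a lower one (SPL2, PHO5, GIT1 and PHM8). The median interaction of the list was 0.10 (median length 1480.5 bases), and with the length trend removed 8 were higher and 4 lower. In every alternative 6 to 8 members were higher and 3 or 4 lower. The members called, with the deleted SPL2 counted among them, made up 45.5% of the list, against 14.5% of all features. Of these 10, 6 lay mostly at 7.2 mM and 3 mostly at 0 mM. In all alternatives 8 of them passed. SPL2 is the deleted gene, and its value of -3.68 rests on the pseudocount. With its reads near 0 in the deletion it was 0.63 by edgeR and -0.28 by DESeq2 and did not pass in either (adjusted p up to 0.924), so its direction is not read as a response.

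Pho4 binds the sequence CACGTG with high affinity and CACGTT with lower affinity. In RefSeq R64 the 500 bases before the start codon held CACGTG for 72.7% of the 22 regulon members, against 6.28% of the 5728 tested genes with such a window, 8.25% of those with a higher response and 9.09% of those with a lower one. CACGTT on either strand was found in 63.6% of the members and in 16.1% of all windows. Sites of genes from both ends of the range are shown on the strand of their gene with the motif in capitals, named by the distance from the last base of the motif to the start codon. They lie at chrXIII:26220-26247 and chrXIII:26198-26225 (PHO84, minus strand), chrXVI:517347-517374 (VTC3, minus strand), chrX:413508-413535 (VTC4, minus strand), chrVIII:551805-551832 (PHO12, plus strand) and chrII:431188-431215 and chrII:431297-431324 (PHO5, minus strand).
PHO84, 431 bases before the start: tttaatagttcCACGTGgacgtgttatt
PHO84, 409 bases before the start: gttatttccagCACGTGgggcggaaatt
VTC3, 340 bases before the start: gtgcgagggccCACGTGgcttaatacaa
VTC4, 120 bases before the start: ttattcatccgCACGTGgctgcacacgt
PHO12, 278 bases before the start: cttggcgttcaCACGTGggtttaaaaag
PHO5, 248 bases before the start: cttggcactcaCACGTGggactagcaca
PHO5, 357 bases before the start: tattaaattagCACGTTttcgcatagaa
PHO84, VTC3 and VTC4 each held 2 copies of CACGTG in the window, and PHO12 and PHO5 held 1 copy of CACGTG and 1 of CACGTT each. A match is a description of the sequence, and these motifs were present on genes with a higher as well as a lower response. The regulon is a list of Pho4 targets, so its high shares are no separate result.

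Spl2 acts on the low-affinity transporters, and their transcripts showed small interactions. PHO87 stood at 88.8, 95.1 and 98.8 RPM in the spl2 deletion at 0 mM, at 50.4 and 54.8 RPM in the spl2 deletion at 7.2 mM, at 91.0, 87.1 and 96.3 RPM in BY4741 at 0 mM and at 68.6, 58.9 and 62.6 RPM in BY4741 at 7.2 mM. Its interaction was 0.30 ± 0.0973 (SE; limma adjusted p = 0.0481), with the strains overlapping at 0 mM and the spl2 deletion lower at 7.2 mM. The call was lost without spl2 deletion library 19, 20 or 7, without BY4741 library 14, 16, 10 or 13, and with the length trend removed (0.15, limma adjusted p = 0.118), and the adjusted p reached 0.175 over the alternatives. PHO90 stood at 88.8, 96.4 and 97.4 RPM in the spl2 deletion at 0 mM, at 79.0 and 82.7 RPM in the spl2 deletion at 7.2 mM, at 82.4, 79.6 and 81.9 RPM in BY4741 at 0 mM and at 86.3, 84.2 and 82.0 RPM in BY4741 at 7.2 mM. Its interaction was 0.27 ± 0.0759 (SE; limma adjusted p = 0.0289), and the strains were apart at 0 mM. That call was lost without spl2 deletion library 19, 20 or 7, without BY4741 library 14 or 16, and with the length trend removed (0.12, limma adjusted p = 0.171). SYG1, which encodes a plasma membrane protein with an SPX domain, had 0.32 ± 0.0801 (SE; limma adjusted p = 0.0145), and its call was lost without spl2 deletion library 7 and with the length trend removed.

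These 3 were the members called of 8 tested genes for low-affinity, vacuolar and Golgi phosphate transport, 37.5% against 14.5% of all features. The median length of the list was 2628 bases and its median interaction was 0.21. With the length trend removed 0 of the 8 passed the limma test and the median was 0.07. Without spl2 deletion library 7 the count was 0, and it was 1 without library 19 or 20 of the spl2 deletion or library 14 or 16 of BY4741. PHO91, the vacuolar exporter, had an interaction of 0.18 and did not pass (limma adjusted p = 0.154), and PHO88, an endoplasmic reticulum protein, had -0.20 (limma adjusted p = 0.0972).

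Apart from PHO81, counted with the regulon, no interaction passed among the listed genes that carry the phosphate signal. Of 10 tested genes, which included PHO80, PHO85, PHO4, PHO2 and the 14-3-3 genes BMH1 and BMH2, 0 passed the limma test, 0 had an unadjusted p below 0.05, and edgeR and DESeq2 called 0 as well, as did limma with the length trend removed. Their interactions lay between -0.14 and 0.13. PHO4 stood at 73.7, 73.1 and 78.1 RPM in the spl2 deletion at 0 mM, at 62.9 and 61.7 RPM in the spl2 deletion at 7.2 mM, at 67.2, 65.1 and 73.8 RPM in BY4741 at 0 mM and at 68.9, 61.7 and 57.2 RPM in BY4741 at 7.2 mM. The strains overlapped at both levels. Of 7 genes of inositol pyrophosphate metabolism, whose products bind SPX domains, the kinase gene VIP1 had a higher response (0.33 ± 0.0774, limma adjusted p = 0.0103) and the hydrolase gene DDP1 a lower one (-0.28 ± 0.0721, limma adjusted p = 0.0203). Neither passed with the length trend removed (limma adjusted p = 0.0606 and 0.153), and by TMM scaling, edgeR and DESeq2 2 genes were lower; DDP1 was also lost without spl2 deletion library 19 or 7 or BY4741 library 14. KCS1, the other inositol pyrophosphate kinase gene, had 0.03 and did not pass (limma adjusted p = 0.849). As deposited 28.6% of this list were called, against 14.5% of all features.

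The neighbours of SPL2 on chromosome VIII differed. ARO9, an aromatic aminotransferase gene that is transcribed away from SPL2, stood at 30.1, 26.4 and 28.0 RPM in the spl2 deletion at 0 mM, at 7.60 and 6.37 RPM in the spl2 deletion at 7.2 mM, at 71.2, 73.3 and 66.8 RPM in BY4741 at 0 mM and at 8.79, 9.67 and 9.47 RPM in BY4741 at 7.2 mM. The spl2 deletion was the lower at both levels, with a difference from BY4741 of -1.29 at 0 mM and -0.37 at 7.2 mM on the log2 scale. The interaction was -0.92 ± 0.111 (SE; limma adjusted p = 0.000162), and -0.98 with the length trend removed. YHR138C, the next gene on that side, had an interaction of -0.68 ± 0.0768 (SE; limma adjusted p = 9.42e-05), with the strains differing by -0.35 at 0 mM and 0.32 at 7.2 mM, and -0.45 with the length trend removed. The third gene on that side, SPS100, did not pass (-0.33 ± 0.145, limma adjusted p = 0.137). On the other side YCK1, WSS1 and NSG1 had interactions of 0.20, -0.08 and 0.02 and did not pass (limma adjusted p = 0.0985, 0.602 and 0.894). The windows before SPL2 and ARO9 overlap in RefSeq R64, and 2 sites of CACGTG at chrVIII:375231-375258 and chrVIII:375445-375472 lie in both. They are shown as read toward ARO9, on the plus strand.
ARO9, 462 bases before the start: gaactttcgccCACGTGcgtacatcatt
ARO9, 248 bases before the start: cccttgtcggtCACGTGagcaaaaatac
The sources used here do not name the limits of the SPL2 deletion, so loss of the Spl2 protein and a change of the DNA beside ARO9 cannot be told apart.

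The response of general stress genes was lower in the spl2 deletion. These are targets of the paired transcription factors Msn2 and Msn4, which act when growth slows or stress sets in. Of this list 73.0% were called, against 14.5% of all features. Of 37 tested members 26 had a lower response and 1, SDS23, a higher one (0.29, limma adjusted p = 0.0342). SDS23 was lost without any of libraries 12, 19, 7 and 18 of the spl2 deletion and 14, 16, 10 and 11 of BY4741. HSP12, a membrane-protecting protein gene, stood at 435.7, 505.9 and 421.6 RPM in the spl2 deletion at 0 mM, at 265.7 and 280.0 RPM in the spl2 deletion at 7.2 mM, at 809.7, 705.0 and 933.0 RPM in BY4741 at 0 mM and at 228.8, 222.3 and 179.5 RPM in BY4741 at 7.2 mM. The spl2 deletion libraries were below those of BY4741 at 0 mM and above them at 7.2 mM. The interaction was -1.22 ± 0.151 (SE; limma adjusted p = 0.000221), and the response ratio was 2.33-fold smaller in the spl2 deletion. RTC3, a gene for a protein linked to RNA metabolism, stood at 37.1, 38.6 and 42.9 RPM in the spl2 deletion at 0 mM, at 34.04 and 31.9 RPM in the spl2 deletion at 7.2 mM, at 59.3, 66.0 and 53.8 RPM in BY4741 at 0 mM and at 23.0, 22.6 and 22.8 RPM in BY4741 at 7.2 mM. Its interaction was -1.09 ± 0.109 (SE; limma adjusted p = 2.93e-05).

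CYC7, the cytochrome c isoform of poor oxygen supply, moved in opposite directions in the strains. It stood at 11.7, 12.6 and 13.3 RPM in the spl2 deletion at 0 mM, at 18.1 and 21.1 RPM in the spl2 deletion at 7.2 mM, at 17.7, 19.7 and 18.9 RPM in BY4741 at 0 mM and at 12.6, 14.1 and 12.9 RPM in BY4741 at 7.2 mM. The interaction was -1.08 ± 0.117 (SE; limma adjusted p = 6.18e-05). HOR7, DDR2 and SOL4 followed at -1.01, -0.997 and -0.99 (limma adjusted p = 0.00153, 0.00219 and 2.7e-05), and of the 15 lowest interactions at 10 RPM or more YNR034W-A, YBR285W, TMA10, FMP16, STF2, RGI1 and YFR052C-A lay between -1.10 and -0.87. Over the whole list the median interaction was -0.56, against 0.0070 over all features, and 35 of the 37 values were below 0. The median difference between strains was -0.32 at 0 mM and 0.24 at 7.2 mM. The list's median length was 1002 bases, and with the length trend removed 24 members were lower, 0 were higher and the median was -0.52. In every alternative 22 to 30 members were lower, and 21 of those called passed in all of them.

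Among reserve carbohydrate, chaperone and autophagy genes the calls pointed the same way. Called were 50% of the trehalose and glycogen list, 43.75% of the autophagy list and 28.6% of the chaperone list, against 14.5% of all features. Of 20 genes of trehalose and glycogen metabolism 10 had a lower response and 0 a higher one by limma (12 lower and 1 higher at an unadjusted p below 0.05, and 0 higher by edgeR and DESeq2). PGM2, a phosphoglucomutase gene, stood at 107.1, 95.9 and 98.3 RPM in the spl2 deletion at 0 mM, at 77.1 and 73.2 RPM in the spl2 deletion at 7.2 mM, at 133.8, 156.7 and 131.9 RPM in BY4741 at 0 mM and at 66.1, 54.6 and 55.6 RPM in BY4741 at 7.2 mM. The strains did not overlap at either level and changed places between them, with an interaction of -0.83 ± 0.117 (SE; limma adjusted p = 0.000709). The glycogen synthase gene GSY1, the branching enzyme gene GLC3 and the trehalose synthase subunit gene TSL1 had interactions of -0.72, -0.71 and -0.66 (limma adjusted p = 0.00815, 0.00751 and 0.0106), the last of which was lost without spl2 deletion library 7. These are long genes (list median 2122.5 bases), and with the length trend removed 14 of the 20 were lower and the median was -0.46, beside -0.30 as deposited.

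Of 16 genes of autophagy and vacuolar proteolysis 7 had a lower response, all 16 values were below 0 and the median was -0.32. ATG8, the ubiquitin-like protein of autophagosomes, stood at 10.7, 10.8 and 11.2 RPM in the spl2 deletion at 0 mM, at 13.6 and 13.1 RPM in the spl2 deletion at 7.2 mM, at 15.3, 17.0 and 16.5 RPM in BY4741 at 0 mM and at 11.45, 10.6 and 11.0 RPM in BY4741 at 7.2 mM. The groups moved in opposite directions in the 2 strains without overlap, and the interaction was -0.80 ± 0.101 (SE; limma adjusted p = 0.000288). The proteinase inhibitor genes PAI3 and PBI2 had -0.80 and -0.69, and ATG14, a subunit of the autophagy lipid kinase, had -0.54 (limma adjusted p = 0.0019, 0.00182 and 0.00629). With the length trend removed 10 of the 16 were lower. The chaperone list was more mixed, with 15 of 21 values below 0, 6 above and a median of -0.21. Of 21 heat shock chaperone genes 6 were lower, led by HSP42 at -0.82, HSP26 at -0.56, HSP78 at -0.53 (lost without spl2 deletion library 7 or BY4741 library 16) and HSP10 at -0.42 (limma adjusted p = 0.00287, 0.00438, 0.0203 and 0.00135). The count was 3 without spl2 deletion library 7 and 5 with the length trend removed, when HSP10 no longer passed.

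The response of genes that build ribosomes was higher in the spl2 deletion. Of the ribosome biogenesis list 83.75% and of the RNA polymerase I and III list 40% were called, against 14.5% of all features. Of 80 tested ribosome biogenesis genes, which make and process ribosomal RNA and assemble the subunits, 67 had a higher response. By limma 0 had a lower one, as by edgeR and DESeq2, and 1 did at an unadjusted p below 0.05. DBP2, an RNA helicase gene, stood at 311.5, 305.9 and 302.2 RPM in the spl2 deletion at 0 mM, at 223.6 and 243.4 RPM in the spl2 deletion at 7.2 mM, at 228.0, 205.3 and 259.5 RPM in BY4741 at 0 mM and at 284.1, 290.9 and 270.8 RPM in BY4741 at 7.2 mM. The ranges did not overlap between phosphate levels in either strain and moved in opposite directions. The interaction was 0.69 ± 0.103 (SE; limma adjusted p = 0.00118). NSR1, the yeast nucleolin, stood at 372.9, 408.3 and 405.9 RPM in the spl2 deletion at 0 mM, at 296.9 and 319.3 RPM in the spl2 deletion at 7.2 mM, at 310.1, 268.3 and 337.8 RPM in BY4741 at 0 mM and at 368.4, 380.3 and 358.6 RPM in BY4741 at 7.2 mM, with an interaction of 0.64 ± 0.106 (SE; limma adjusted p = 0.00186). The GTPase gene NOG1 and the processome gene ENP2 had 0.64 and 0.60 (limma adjusted p = 0.00119 and 0.00194).

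Over the list the median interaction was 0.44, and 79 of the 80 values were above 0. The median difference between strains was 0.24 at 0 mM and -0.19 at 7.2 mM. The list's median length was 1662 bases, above the 1236 bases of all tested features, and with the length trend removed 74 of the 80 were higher and the median was 0.36. In every alternative at least 48 members were higher, the fewest without spl2 deletion library 7, and 48 of the called members passed in all of them. Of 20 genes of RNA polymerases I and III, which transcribe ribosomal and transfer RNA, 8 were higher, among them the large subunit genes RPO31, RPA190 and RPA135 at 0.57, 0.53 and 0.51 and RPA49 at 0.44 (limma adjusted p = 0.00194, 0.00318, 0.00153 and 0.0047). With the length trend removed 12 of the 20 were higher.

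Other features among the 15 highest interactions at 10 RPM or more were AQR1, YGR079W, BMT6, TOD6, FCY22, VTS1, RSA4 and DHR2, at 0.84, 0.71, 0.67, 0.65, 0.64, 0.62, 0.62 and 0.61. RSA4 and DHR2 are ribosome assembly genes, BMT6 encodes a methyltransferase of ribosomal RNA, and AQR1 encodes a multidrug transporter. TOD6, a repressor that binds the PAC element of ribosome biogenesis genes, stood at 60.9, 68.5 and 63.4 RPM in the spl2 deletion at 0 mM, at 43.1 and 43.7 RPM in the spl2 deletion at 7.2 mM, at 49.7, 43.6 and 55.4 RPM in BY4741 at 0 mM and at 55.5, 53.5 and 49.7 RPM in BY4741 at 7.2 mM. The spl2 deletion was the higher at 0 mM and the lower at 7.2 mM, with an interaction of 0.65 ± 0.114 (SE; limma adjusted p = 0.00217). AQR1 was lost without spl2 deletion library 7 (0.62, limma adjusted p = 0.0583).

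**Figure D4:**
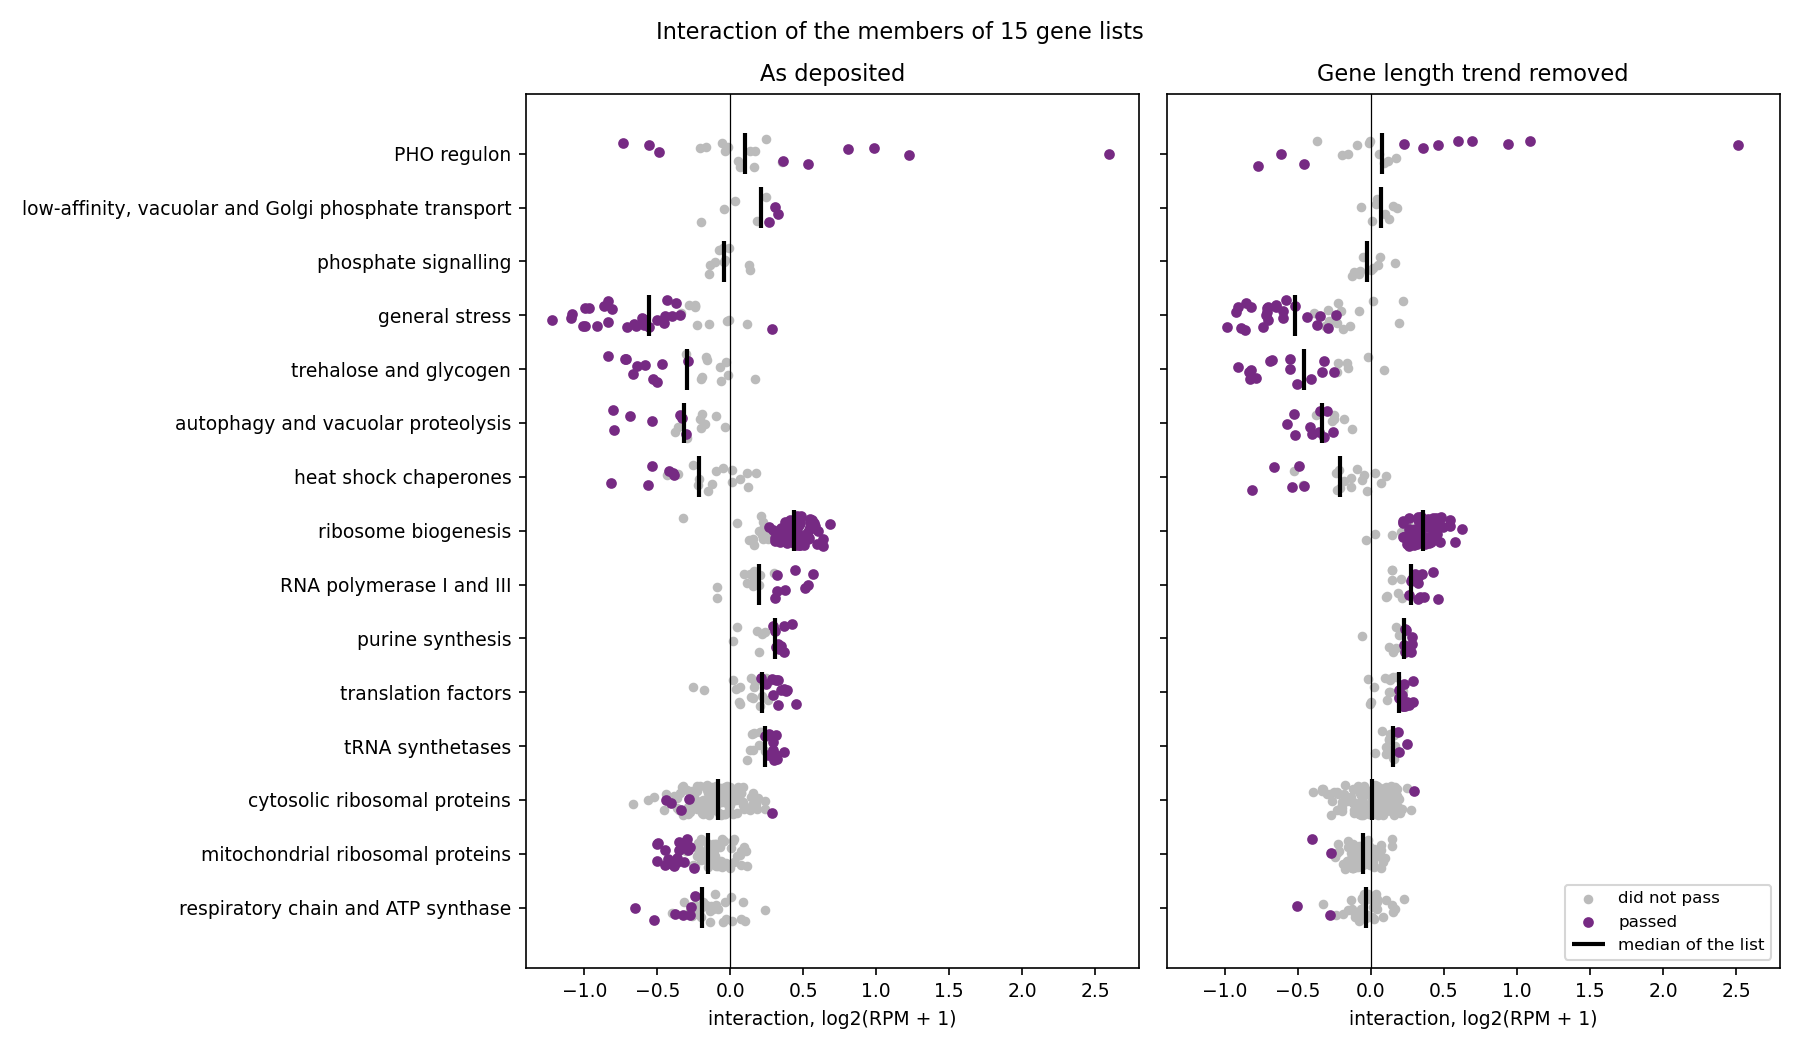
Interaction on the log2(RPM + 1) scale of each tested member of 15 gene lists, as deposited (left) and with the gene length trend removed (right); purple points passed the limma test at an adjusted p of 0.05, grey points did not, and the black bar is the median of the list. General stress genes lie mostly below 0 and ribosome biogenesis genes above 0 in both panels. Mitochondrial ribosomal protein and respiratory genes move toward 0 on the right. SPL2, at -3.68 and -3.50, is outside the axes.

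Genes of translation and of nucleotide synthesis were also called mostly higher, with smaller values. Called were 41.4% of translation factor, 52.6% of tRNA synthetase, 60% of purine, 30% of one-carbon and 50% of pyrimidine genes. Over all features 14.5% were called. Of 29 translation factor genes 12 were higher, YEF3 the highest at 0.45 ± 0.0815 (SE; limma adjusted p = 0.00249), and 11 were with the length trend removed. The count was 7 without library 19 of the spl2 deletion or library 16 of BY4741, and 6 without spl2 deletion library 7. Of 19 tRNA synthetase genes 10 were higher, MES1 at 0.37 (lost without spl2 deletion library 7) with the highest value, but 3 were with the length trend removed. Their count was 2 without spl2 deletion library 7 and 6 without BY4741 library 14.

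Of 15 purine synthesis genes 9 were higher, and all 15 values were above 0. ADE6 stood at 631.5, 597.1 and 616.5 RPM in the spl2 deletion at 0 mM, at 572.2 and 533.1 RPM in the spl2 deletion at 7.2 mM, at 477.5, 477.5 and 444.4 RPM in BY4741 at 0 mM and at 601.5, 546.6 and 539.8 RPM in BY4741 at 7.2 mM. The strains were apart at 0 mM and overlapped at 7.2 mM, with an interaction of 0.42 ± 0.0821 (SE; limma adjusted p = 0.00394). It did not pass with the length trend removed (0.23, limma adjusted p = 0.0865), when 7 of 14 purine genes with a length did. IMD4 and GUA1, of guanine nucleotide synthesis, had 0.37 and 0.35 (limma adjusted p = 0.00521 and 0.0076) and passed in all 21 alternatives. SHM2, the cytosolic serine hydroxymethyltransferase of one-carbon metabolism, stood at 1668, 1511 and 1546 RPM in the spl2 deletion at 0 mM, at 1543 and 1605 RPM in the spl2 deletion at 7.2 mM, at 1277, 1329 and 1298 RPM in BY4741 at 0 mM and at 1824, 1766 and 1753 RPM in BY4741 at 7.2 mM. The spl2 deletion libraries overlapped between phosphate levels while those of BY4741 did not, and the interaction was 0.45 ± 0.0767 (SE; limma adjusted p = 0.0019). With SHM2, MIS1 (0.38) and GCV2 (0.35) were called of 10 one-carbon genes, of which 2 passed with the length trend removed. URA2 and URA7, of pyrimidine synthesis, had 0.53 and 0.46, or 0.28 and 0.38 with the length trend removed, and passed in all 21 alternatives. URA1 and FUI1 had 0.54 and 0.40 and passed in 14 and 11 of the 21. URA10 was lower, at -0.38 (limma adjusted p = 0.0176). Of 10 pyrimidine genes 4 were higher and 1 lower. Their higher count was 2 without any of libraries 19, 20 and 7 of the spl2 deletion and 16, 10 and 13 of BY4741, and their lower count was 0 without spl2 deletion library 19 or BY4741 library 14. With no filter 2 were higher, and with the length trend removed 6 were higher and 1 lower.

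Few genes for the ribosomal proteins themselves passed. Of 138 cytosolic ribosomal protein genes 1 was higher and 4 were lower, 3.62% in all against 14.5% of all features, with a median of -0.08 that was 0.0042 with the length trend removed. The count lower was 0 without library 7 of the spl2 deletion or library 14 or 16 of BY4741, 1 without BY4741 library 10, 2 without spl2 deletion library 12 or 19, 7 without BY4741 library 11, 14 when library 18 of the spl2 deletion was left out and 21 without BY4741 library 17. It was 1 by TMM scaling, 2 by edgeR or with no filter, 11 by DESeq2 and 15 with library quality weights. Most calls among the short genes of the mitochondria were lost with the length trend removed. As deposited 27.6% of the mitochondrial ribosomal list and 18.9% of the respiratory list were called, against 14.5% of all features. The list of 76 mitochondrial ribosomal protein genes (median length 706.5 bases) also holds MRP8 and YMR31, whose products are not established ribosomal proteins. Of the listed genes 21 were lower as deposited and 2, MRP8 and MRP2, with the length trend removed. Without library 19 of the spl2 deletion or library 14 or 16 of BY4741 the count was 13, 12 and 13. Of 37 respiratory chain and ATP synthase genes (median length 483 bases) 7 were lower as deposited and 2 with the trend removed. Their count was 1 without library 19 or 7 of the spl2 deletion or library 14 or 16 of BY4741, 3 without library 12 of the spl2 deletion or library 10 or 13 of BY4741, 4 without spl2 deletion library 18 and 11 without BY4741 library 17, and it was 15 with library quality weights. COX5B, the cytochrome oxidase subunit of poor oxygen supply, led at -0.65 ± 0.112 (SE; limma adjusted p = 0.00194) and passed in all 21 alternatives.

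Among the genes of sugar metabolism single members passed. The calls made up 23.5% of the hexose transport and sensing list and 37.5% of the glycolytic list, against 14.5% of all features. Of 17 hexose transport and sensing genes the transporter genes HXT7 and HXT5 and the regulator gene MTH1 were lower at -0.56, -0.39 and -0.49 (limma adjusted p = 0.00313, 0.0154 and 0.0381), and MTH1 was lost without any of libraries 12, 19, 20, 7 and 18 of the spl2 deletion and 16, 11 and 13 of BY4741. HXT6, nearly identical to HXT7, was the 1 called higher, at 1.08 ± 0.34 (limma adjusted p = 0.0456), and passed in 7 of 20 alternatives, not without any of libraries 19, 20, 7 and 18 of the spl2 deletion and 14, 17, 10 and 13 of BY4741; without library 12 or 11 the count called higher was 3. With the length trend removed 0 were higher, HXT6 not passing (limma adjusted p = 0.0859), and the same 3 genes were lower; 4 were higher by DESeq2 and 5 with library quality weights. Reads of HXT6 and HXT7 can be assigned to either gene, so their split is uncertain. Of 16 glycolytic genes 4 were lower and 2 higher. TDH1 stood at 234.8, 270.9 and 223.6 RPM in the spl2 deletion at 0 mM, at 87.3 and 89.7 RPM in the spl2 deletion at 7.2 mM, at 371.2, 310.5 and 378.9 RPM in BY4741 at 0 mM and at 101.5, 90.7 and 80.2 RPM in BY4741 at 7.2 mM. The strains were apart at 0 mM and overlapped at 7.2 mM, and the interaction was -0.51 ± 0.135 (SE; limma adjusted p = 0.0218), lost without spl2 deletion library 7 or BY4741 library 14 or 13. GPM2, PYK2 and ENO1 had -0.55, -0.42 and -0.33. PYK2 was lost without libraries 19, 20 and 7 of the spl2 deletion and 16, 11 and 13 of BY4741, each left out alone, and ENO1 likewise without 12, 19, 20, 7, 14, 17 and 13. The lower count was 1 to 2 without any one of libraries 19, 20 and 7 of the spl2 deletion and 14 and 13 of BY4741, and with the length trend removed it was 4 with 0 higher.

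In some features the 2 strains responded in opposite directions with no overlap between phosphate levels in either. Such a pattern, higher without phosphate in the spl2 deletion and lower in BY4741, was found for 43 of the 6071 tested features, and 37 of these were among the 414 called higher (6.82% of all tested). The reverse was found for 103, of which 90 were among the 468 called lower (7.71% of all tested). The pattern and the call use the same values, so the pattern by itself favours a call in that direction. The overlap is therefore no separate result. By the naming rule the first kind is represented by DBP2, FCY22, NSR1, UTP20 and URA2 and the second by CYC7, TMA10, YGL152C, ATG8 and COA4. UTP20, a processome gene, stood at 76.9, 75.4 and 82.8 RPM in the spl2 deletion at 0 mM, at 56.2 and 58.2 RPM in the spl2 deletion at 7.2 mM, at 63.1, 62.4 and 61.4 RPM in BY4741 at 0 mM and at 75.2, 64.5 and 66.4 RPM in BY4741 at 7.2 mM. COA4, of cytochrome oxidase assembly, stood at 24.7, 27.7 and 27.3 RPM in the spl2 deletion at 0 mM, at 32.3 and 29.8 RPM in the spl2 deletion at 7.2 mM, at 36.1, 34.4 and 31.8 RPM in BY4741 at 0 mM and at 25.6, 24.1 and 24.4 RPM in BY4741 at 7.2 mM. Their interactions were 0.58 ± 0.0902 and -0.67 ± 0.0985 (SE; limma adjusted p = 0.00122 and 0.00106), and 0.33 and -0.49 with the length trend removed. Then UTP20, COA4, DBP2, FCY22, NSR1, URA2, CYC7, TMA10 and ATG8 still passed, while YGL152C has no length. MRPL33, HSP10 and ADE6, which also showed such a pattern, did not pass then (limma adjusted p = 0.0516, 0.0708 and 0.0865). The pattern itself was not counted with the trend removed.

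The windows before the start codons of the features called differed in motif content. The PAC element was searched as GATGAG, the RRPE element as AAAATTTT and the stress response element as AGGGG, the last being the core of the site of Msn2 and Msn4, each on both strands of the 500 bases before the start. GATGAG was in 60.0% of the 412 windows of features with a higher response and in 25.3% of the 451 with a lower one, against 28.1% of all 5728. AAAATTTT was in 44.2%, 7.98% and 12.6% in the same order, and AGGGG in 24.8%, 57.6% and 34.3%. With the length trend removed GATGAG was in 67.6% and AAAATTTT in 51.6% of the windows of the higher features, and AGGGG in 70.6% of those of the lower ones. Within the lists, GATGAG was in 88.8% and AAAATTTT in 78.8% of 80 ribosome biogenesis windows, and AGGGG in 86.5% of 37 general stress windows. TGACTC, the core shared by the factors Gcn4 and Bas1, was in 71.4% of 14 purine windows and in 12.8% of all, but in 15.05% of the higher and 10.2% of the lower windows. These shares are descriptions, and windows of neighbouring genes can overlap. The general stress list holds targets of Msn2 and Msn4, and PAC and RRPE are known elements of ribosome biogenesis genes. High shares within these lists are therefore no separate result, and members of both lists are among the called features.

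**Figure D5:**
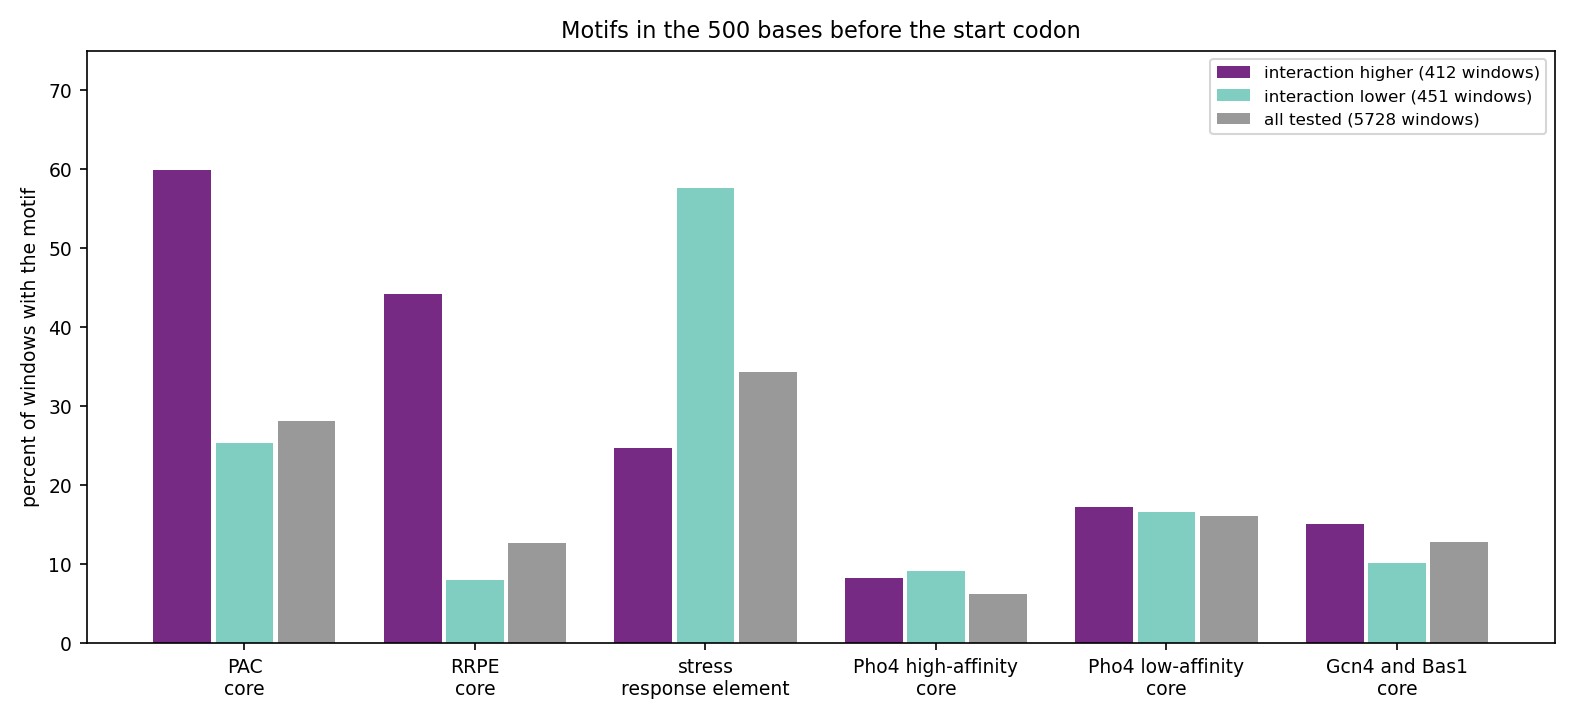
Percent of the 500-base windows before the start codon that hold each motif on either strand, for features with a higher interaction (purple), with a lower interaction (green) and for all tested features (grey). PAC and RRPE are most frequent before the higher features, at 60.0% and 44.2%, and the stress response element before the lower ones, at 57.6%, while the Pho4 cores lie close together.

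Sites from genes described above, chosen to show the motifs whose shares differed, are given on the strand of the gene, with the motif or its reverse complement in capitals. They lie at chrVI:106810-106836 and chrVI:106831-106857 (HSP12, plus strand), chrXIII:477950-477976 (PGM2, minus strand), chrXIV:413473-413500 and chrXIV:413483-413512 (DBP2, plus strand), chrVII:807827-807854 and chrVII:807810-807839 (NSR1, minus strand) and chrVII:616225-616252 (ADE6, minus strand).
HSP12, 431 bases before the start: ggcatctgttaAGGGGatatgttgcaa
HSP12, 410 bases before the start: ttgcaacttgcAGGGGgcggcacaaaa
PGM2, 355 bases before the start: ttgttctttctAGGGGggagaggccca
DBP2, 150 bases before the start: ttacgccgatgCTCATCgcagaaaattt
DBP2, 138 bases before the start: gctcatcgcagAAAATTTTtccttcagttt
NSR1, 182 bases before the start: tgcaagggcagCTCATCgcaagaacgaa
NSR1, 165 bases before the start: tcgcaagaacgAAAATTTTcaatccaatat
ADE6, 271 bases before the start: tcaaccgttccTGACTCtttcctgctga
In DBP2 and NSR1 the PAC element, here as CTCATC, stood just upstream of the RRPE element, and the windows of each pair overlap.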

How the data were processed

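RNA of 11 libraries was analysed, made with a stranded mRNA kit and sequenced on an Illumina HiSeq instrument, per the labels' protocols. The authors deposited RPM values, read numbers scaled to a common library total, for 7125 features. The sources used here name no aligner, counter, build or use of strand, so values of near-identical, overlapping or antisense features are uncertain. At a tolerance of 0.001 reads 100% of the RPM values were whole multiples of 1 read, which gave read numbers for edgeR and DESeq2; 3 reads equalled 0.0741 to 0.136 RPM.

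In R 4.3.3, log2(RPM + 1) values entered limma 3.58.1, with the prior variance following mean expression, a mean for each of 4 groups, 7 residual degrees of freedom and Benjamini-Hochberg adjustment over all 6071 features (threshold 0.05). This scale understates changes of low values. Replicates are separate cultures per the series' description. Their counts differed beyond sampling noise (mean chi-square 3.84 to 26.9). BY4741 libraries 11 and 13 at 7.2 mM had 3.84, and library 10 had 26.6 and 23.9 against them. BY4741 libraries 14 and 16 at 0 mM had 4.97, and library 17 had 20.85 and 21.9 against them. Pairs of spl2 deletion libraries had 11.1 to 26.9 at 0 mM and 22.15 at 7.2 mM. The fit was tested on simulated data. The 39 gene lists, the members and the tests were chosen with earlier results of these data known, and gene length after seeing these fits. Named were the 15 highest and 15 lowest interactions at 10 RPM or more, up to 4 members of each list, the neighbours of SPL2 and the opposite responses; phosphate genes were given whole, and SDS23 was chosen after its value was seen. Names, lengths and sequences are from RefSeq R64 and matched 6211 features; the files give no coordinates. Alternatives were other pseudocounts, filters and scalings, edgeR 4.0.16, DESeq2 1.42.0, quality weights, and leaving out each library.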

Additional observations from a re-analysis of the deposited data

Results flagged for a closer look

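The number of features whose response to phosphate differed between strains by the interaction test was 414 higher and 468 lower in the spl2 deletion, and each is a test of a difference between 2 strains under the same contrast. Among the phosphate genes, the interaction passed for the high-affinity transporter gene PHO84 and the main acid phosphatase gene PHO5, and for PHO87 and PHO90. It did not pass for PHO89, the other high-affinity transporter gene (0.07, limma adjusted p = 0.824). PHO84 differed by 2.59, with the spl2 deletion lower at 7.2 mM. PHO5 differed by -0.74, with the spl2 deletion lower at 0 mM. The low-affinity transporter genes PHO87 and PHO90 differed by 0.30 and 0.27, and both calls were lost with the gene length trend removed. PHO87 passed in 12 and PHO90 in 15 of 21 alternatives, with losses also when single libraries were left out. No group held 4 or more libraries, so single libraries that stand apart within a group were not searched for by a range test.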

How the results depend on the processing

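Counts of features called stayed within 1.5 times the reported 414 higher and 468 lower under a pseudocount of 0.25 RPM, no filter, a mean of at least 10 RPM, TMM scaling, edgeR, DESeq2, the added bmh1 library and both gene length alternatives, which were chosen after seeing the data. Similar counts did not mean the same features. With the gene length trend removed, 261 of the 412 higher and 245 of the 451 lower features that have a length were kept. With library quality weights the counts were 635 and 709. Over the fits that leave out 1 library they ran from 197 to 529 higher and from 276 to 603 lower. Among values of single named genes under the alternatives, 2327 kept their direction and side of the threshold, 323 lost the call, 3 gained it and 5 reversed. SPL2, the deleted gene, was 0.63 by edgeR. PHO89, never called, was -0.15 with library quality weights, -0.0091 with the gene length trend removed and -0.11 without spl2 deletion library 12, in a range of -0.11 to 0.23 over the libraries left out. WSS1, not called, ranged from -0.18 to 0.025 over them, the highest without spl2 deletion library 18. Leaving out a spl2 deletion library at 7.2 mM leaves 1, which is then assumed to vary like the other groups. No paired analysis was possible because the labels give no number shared between groups. Cultures that share a parent, and a batch or handling order that the labels do not give, could not be taken into account.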

Other observations

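Iron, sterol and membrane genes held single members with a different response. FET3, the multicopper oxidase of high-affinity iron uptake, stood at 192.9, 206.9 and 198.8 RPM in the spl2 deletion at 0 mM, at 240.7 and 258.9 RPM in the spl2 deletion at 7.2 mM, at 153.7, 149.96 and 152.8 RPM in BY4741 at 0 mM and at 289.4, 250.9 and 271.8 RPM in BY4741 at 7.2 mM. The strains were apart at 0 mM and overlapped at 7.2 mM, with an interaction of 0.50 ± 0.0832 (SE; limma adjusted p = 0.00186) that passed in all 21 alternatives. The iron regulator genes AFT2 and AFT1 had 0.33 and 0.31 (limma adjusted p = 0.0219 and 0.0344), and 3 of 26 iron genes were called, 11.54% against 14.5% of all features. With the length trend removed 2 were called and AFT1 was not (limma adjusted p = 0.0588). By TMM scaling or DESeq2 5 were higher, and 6 with library quality weights. The count was 1 without library 19 or 7 of the spl2 deletion or library 16 of BY4741 5 without spl2 deletion library 12 or BY4741 library 11 and 6 without spl2 deletion library 18. AFT2 was lost without libraries 19, 7 and 16, each left out alone, and AFT1 likewise without 19, 20, 7, 18, 14, 16 and 10. ERG28, of sterol synthesis, had -0.55 ± 0.0953 (limma adjusted p = 0.00215) and was the 1 called of 25 sterol genes, 4% against 14.5% of all features, also with the length trend removed. OPI3, of phosphatidylcholine synthesis, had -0.38 (limma adjusted p = 0.00889) and did not pass with the length trend removed (limma adjusted p = 0.0627).

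The cell wall protein gene PST1 had a lower response at -0.49 ± 0.0874 (SE; limma adjusted p = 0.00236), with the strains in opposite order at the 2 phosphate levels. In its list of 22 cell wall integrity genes 13.6% were called, against 14.5% of all features, and the other 2, the transcription factor gene RLM1 and GAS3, were higher at 0.32 and 0.28 (limma adjusted p = 0.0448 and 0.0236). RLM1 was lost with the length trend removed and without any of libraries 12, 19, 7, 18, 16, 10 and 11, and GAS3 without any of 19, 20, 7 and 16. PST1 stood at 56.7, 59.8 and 52.8 RPM in the spl2 deletion at 0 mM, at 57.0 and 54.5 RPM in the spl2 deletion at 7.2 mM, at 66.4, 63.1 and 65.0 RPM in BY4741 at 0 mM and at 48.0, 43.4 and 44.5 RPM in BY4741 at 7.2 mM. Of 10 core histone genes 0 passed by limma, edgeR or DESeq2 or at an unadjusted p below 0.05, and 4 were higher with the length trend removed. Of 19 genes of the G1 and S phases 0 passed by any of these. Of 15 genes of the G2 and M phases 2 were higher, CHS2 and IQG1 at 0.26 and 0.28, 13.3% against 14.5% of all features called, and 0 passed with the length trend removed or without any one of libraries 19, 20 and 7 of the spl2 deletion and 14, 16 and 13 of BY4741; CHS2 was also lost without libraries 12, 10 and 11.

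Of 13 genes listed under mating type a 3 were lower, 23.1% against 7.71% of all features called lower. Among these, STE18 is not particular to a cells. ASG7, at -0.40 (limma adjusted p = 0.00645), passed in all 21 alternatives, while STE18 and AGA2, at -0.30 and -0.26, did not pass with the length trend removed (limma adjusted p = 0.607 and 0.984). The count was 1 without library 19 of the spl2 deletion or library 14 of BY4741. STE18 was also lost without libraries 12, 20, 18, 16 and 10, each left out alone, and AGA2 without 18 and 13.

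Of 41 amino acid synthesis genes under Gcn4 5 were higher, 12.2% against 14.5% of all features called, a count that was 10 by DESeq2, 1 with the length trend removed or without BY4741 library 14 or 16, 2 without spl2 deletion library 7, 3 without library 12 or 20 of the spl2 deletion or library 10 or 13 of BY4741, and 10 without BY4741 library 17. Of 18 drug resistance transporter genes 4 were higher, 22.2% against 14.5%. That count was 1 with the length trend removed, 0 without spl2 deletion library 7 and 1 without any of libraries 19, 20, 14, 16, 17, 10 and 13.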
